A study of Mus musculus with 12 samples.

Results

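The genes described here are 35 mouse genes of T-cell identity, T-cell receptor signalling and cytotoxic killing. They were chosen by name, and all 35 were found among the 34844 gene names of the array. For each gene the probe of highest mean among those well above background on every array of at least 1 group was read. By that filter 33 of the 35 genes could be tested, 29 of them well above background on all 12 arrays. Ubash3a, a negative regulator of T-cell receptor signals, was well above background on 5 arrays, and Sh2d1a, the adaptor of the SLAM family receptors, on 4. These genes have no tested value. A level below is the log2 of the processed spot signal minus the 75th percentile of that array, so 0 marks a signal at that percentile and 1 unit is a 2-fold step. Probes differ in brightness, and a level is compared only between arrays, never between genes.

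The arrays held total RNA of 4 groups of 3 samples each. Survivin-deleted hepatocellular carcinoma (HCC, titled Mx+tumor) was set against wild-type HCC (Mx-tumor), and survivin-deleted non-cancerous liver (Mx+liver) against wild-type non-cancerous liver (Mx-liver). The deleted groups had genotype Mxcre+ and the wild-type groups Mxcre-. All mice were male, of strain 129/SV/B6, and had been injected with the liver carcinogen DEN (N-nitrosodiethylamine) at 50 mg/kg when 2 weeks old. Irradiation and bone marrow transplantation preceded tissue collection by 2 months in every group. Poly(IC), a double-stranded RNA that induces interferon, was given to all of them 8 months after DEN, and tissue was taken 1 week later. The Mx promoter that drives Cre is switched on by interferon in hepatocytes and in blood-forming cells alike, so Cre is not limited to tumour cells. The sources used here do not give the donors' genotype or state whether the 3 samples of a group are separate mice. The p-values therefore measure only the spread between these samples.

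T cells recognise peptides through the T-cell receptor, whose antigen-binding chains have almost no cytoplasmic tail. The signal is carried by the CD3 proteins and the zeta chain, whose tails hold paired tyrosines that the kinase Lck phosphorylates. The kinase Zap70 docks there and phosphorylates the scaffold Lat, from which calcium and Ras signals start. Cytotoxic T cells and natural killer (NK) cells kill by releasing perforin and granzymes or through Fas ligand. Interferon-gamma is their main secreted cytokine. The liver normally holds many NK and T cells, and poly(IC) is a known activator of liver NK cells.

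The probes of Cd3d, Cd247, Lat and Zap70 fall in coding sequence and are shown to make plain which stretch of these signalling transcripts was read. They are 60 bases long, given 5′ to 3′ with mm9 coordinates per the file headers, and capitals mark the tyrosine codons in the reading frame of the protein. The Cd3d and Cd247 probes span an exon junction, and each covers 2 tyrosine codons of an activation motif. The Lat probe covers 1 tyrosine codon, and the Zap70 probe covers 3 in a row, which are not part of an activation motif.
Cd3d (chr9:44794171-44794402, plus strand): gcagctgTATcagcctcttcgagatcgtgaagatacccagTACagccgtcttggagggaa
Cd247 (chr1:167786567-167787585, plus strand): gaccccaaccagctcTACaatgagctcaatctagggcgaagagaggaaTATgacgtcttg
Lat (chr7:133507719-133507778, minus strand): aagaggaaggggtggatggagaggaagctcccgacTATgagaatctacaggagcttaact
Zap70 (chr1:36839315-36839374, plus strand): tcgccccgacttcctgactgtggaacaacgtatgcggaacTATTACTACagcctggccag

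Replicate 1 of every group lay on slide 1 and replicates 2 and 3 on slide 2, and the 75th percentile of the processed signal was 1131 to 1766 on slide 1 and 3343 to 3906 on slide 2. Slide was therefore a term of the fit, and differences are also given within each slide. On slide 1, deleted liver and wild-type HCC as labelled each match the other's column in the authors' value table. Results are given as labelled in the scanner files, and the main ones again with these 2 arrays exchanged or left out. Statements on slide 1 for single genes are as labelled unless the exchange is named. Birc5, the gene of survivin, had levels of 0.060, 0.17 and -0.085 in replicates 1, 2 and 3 of deleted HCC, against 0.80, 0.82 and 1.76 in wild-type HCC, and of 2.42, -0.10 and -1.07 in deleted liver, against 2.85, 0.51 and 0.76 in wild-type liver. It was lower with deletion on each slide in both tissues, by 1.08 ± 0.69 (SE) on the log2 scale in HCC and 0.96 ± 0.69 in liver (limma adjusted p = 0.727 and 0.552). The liver identity of all samples was checked on 8 hepatocyte markers, which were well above background on every array.

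In HCC most of the 33 genes had higher levels in the survivin-deleted samples, yet none passed the test. The difference was above 0 for 29 of 33, with a median of 0.91 on the log2 scale, while 47.4% of the 26506 genes tested were above 0 and their median was -0.021. The 4 members below 0 were Zap70, Cd4, Gzmk and Tbx21. Bcl11b, Cd247, Cd8b1 and Ifng passed the filter only through deleted groups. Read only from probes well above background on all 12 arrays, 29 members had a median of 0.76. A filter of 6 of the 12 arrays, regardless of group, gave a median of 0.91 over 33 members. No member passed a limma adjusted p of 0.05, and no gene of the array did (background 0%). At an unadjusted p under 0.05, 9 members were higher (background 3.44%) and 1, Zap70, was lower (background 4.44%). As labelled, deleted and wild-type arrays did not overlap on either slide for 14 members in the higher direction (background 8.85%). In the lower direction this held for 1 (background 13.1%).

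The difference was mainly a feature of slide 2. There both deleted arrays lay above both wild-type arrays for 23 of 33 members (background 27.8%), and 21 members differed 2-fold or more upward (background 5.4%), with a median difference of 1.42. On slide 1 the median difference was 0.077, with 19 of 33 members above 0 (background 35.1%) and 1, Eomes, 2-fold or more higher. The wild-type HCC array of slide 1 is 1 of the 2 in doubt. Exchanged for the array labelled deleted liver, it gave a slide 1 median of -0.84, with 2 of 33 members above 0. Deleted HCC replicate 2 was the highest array of slide 2 for 26 members, and deleted HCC replicate 3 for 2. At the low end, wild-type HCC replicate 3 was the lowest array of slide 2 for 19 members. Without deleted HCC replicate 2 the median difference of the members in HCC was 0.42, and without wild-type HCC replicate 3 it was 0.60. With either of these arrays left out, 0 members had an unadjusted p under 0.05 by limma (background 6.12% and 4.64%). The number higher at that p was 4 without deleted HCC replicate 3 (background 4.32%) and 19 without deleted HCC replicate 1 (5.43%). It was 2 without wild-type HCC replicate 1 (4.37%) and 12 without wild-type HCC replicate 2 (2.75%). The median was 0.56 with the 2 doubtful arrays exchanged and 1.19 without them. At an unadjusted p under 0.05, 1 member was higher and 2 lower with the arrays exchanged (background 3.55% and 5.46%), and 12 higher and 1 lower without them (background 6.1% and 5.81%).

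**Figure D1:**
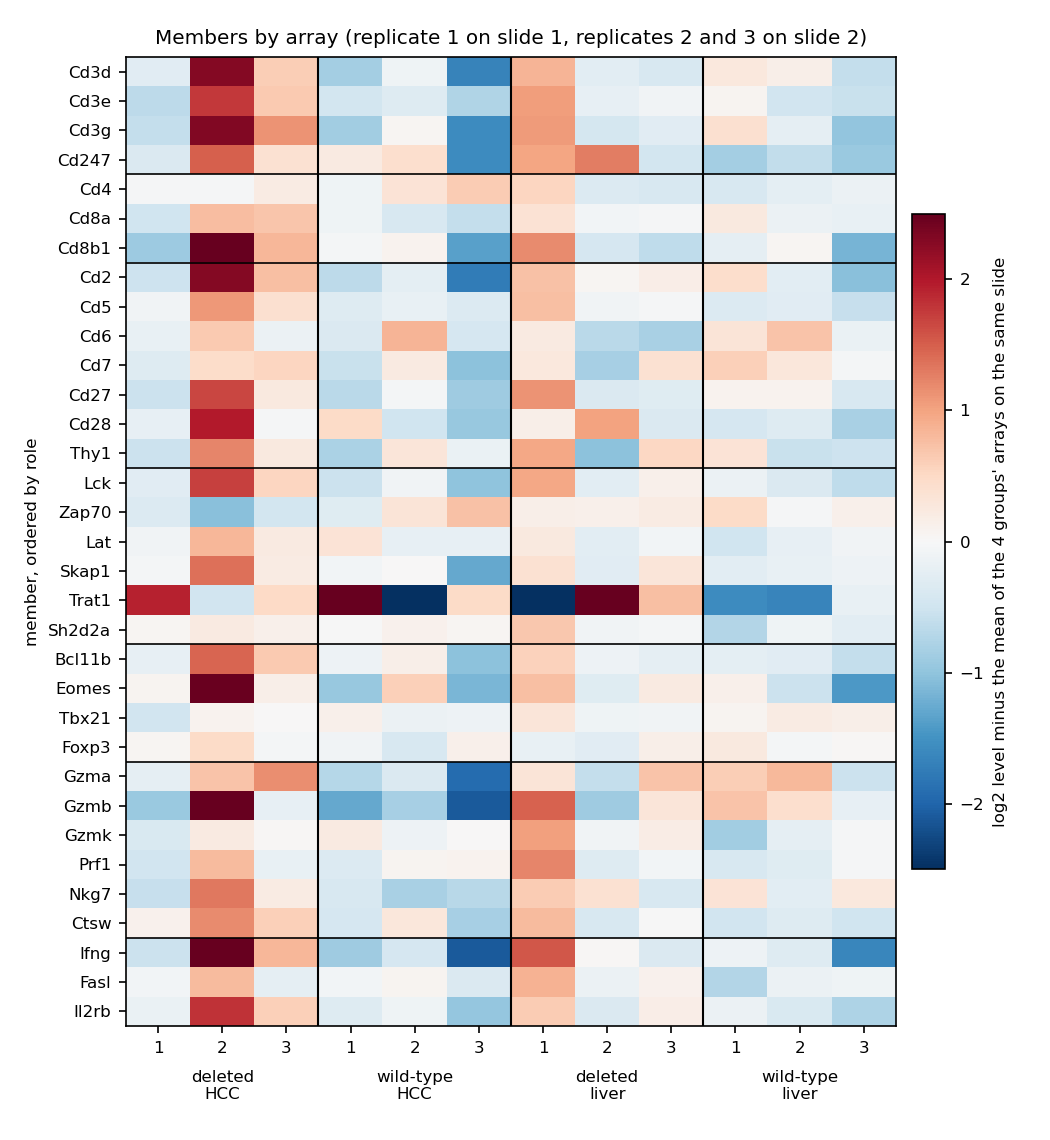
Colour gives the log2 level of each tested member (rows, ordered by role) on each of the 12 arrays (columns) minus its mean over the 4 groups' arrays of the same slide, with the scale ending at 2.5 units either way. The array of deleted HCC replicate 2 is red for most members, deleted HCC replicate 3 more weakly so, and on slide 1 the array labelled deleted liver replicate 1 is the highest for 25 of 33.

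The 4 signalling subunits of the T-cell receptor were all higher in deleted HCC, with a median difference of 1.42. Cd3d had levels of -2.77, -0.44 and -2.13 in deleted HCC, against -3.34, -2.84 and -4.41 in wild-type HCC, and of -1.65, -3.01 and -3.15 in deleted liver, against -2.22, -2.61 and -3.35 in wild-type liver. The HCC groups did not overlap, with deleted replicate 2 above all other arrays, while the liver groups did. Cd3d was thus 3.36-fold higher in deleted HCC (1.75 ± 0.66 SE on the log2 scale, limma adjusted p = 0.596). Cd3g had levels of -1.66, 0.56 and -0.65 in deleted HCC, against -1.94, -1.71 and -3.34 in wild-type HCC, and of 0.0021, -2.20 and -2.05 in deleted liver, against -0.65, -1.98 and -2.74 in wild-type liver. It showed the same order, with no overlap in HCC and a difference of 1.74 ± 0.75.

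Cd3e had levels of -1.70, 0.53 and -0.58 in deleted HCC, against -1.49, -1.54 and -1.99 in wild-type HCC, and of -0.0024, -1.43 and -1.31 in deleted liver, against -0.98, -1.71 and -1.79 in wild-type liver. Both deleted HCC arrays of slide 2 were above every wild-type HCC array, and the deleted array of slide 1 was below all but 1 of them. The HCC difference was 1.09 ± 0.55 and the liver difference 0.58 ± 0.55. Cd247, the zeta chain, was dim, well above background on 8 arrays, and was one of 2 members that entered the test through deleted HCC alone, the other being Cd8b1. Its levels were -4.26, -4.04 and -5.16 in deleted HCC, against -3.68, -5.10 and -7.10 in wild-type HCC, and -2.926, -4.253 and -5.995 in deleted liver, against -4.76, -6.15 and -6.46 in wild-type liver. On slide 2 the deleted HCC arrays lay on either side of the brighter wild-type array, and on slide 1 the wild-type array was higher. Its liver difference of 1.40 ± 0.65 was above its HCC difference of 0.81 ± 0.65 (adjusted p = 0.423 and 0.787). A second Cd247 probe, well above background on 5 arrays, differed by -0.39 in HCC and -0.18 in liver.

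The coreceptors set helper from killer T cells, Cd4 binding MHC class II and the Cd8 chains MHC class I. Cd8a had levels of -3.36, -1.74 and -1.82 in deleted HCC, against -2.95, -2.91 and -3.10 in wild-type HCC, and of -2.49, -2.58 and -2.55 in deleted liver, against -2.62, -2.66 and -2.70 in wild-type liver. Here both deleted HCC arrays of slide 2 were above all 10 other arrays, and the deleted HCC array of slide 1 was below all 11 others. The difference in HCC was -0.40 on slide 1 and 1.23 on slide 2, and 0.68 ± 0.33 in the fit (adjusted p = 0.648). A second Cd8a probe, well above background on 6 arrays, had levels of -5.17, -4.44 and -4.84 in deleted HCC, against -5.80, -5.54 and -7.86 in wild-type HCC. At that probe deleted HCC was the higher on slide 1 as well, but the lower with the 2 doubtful arrays exchanged. Cd8b1 had levels of -4.93, -2.77 and -4.56 in deleted HCC, against -4.06, -5.29 and -6.75 in wild-type HCC, and of -2.84, -5.82 and -6.03 in deleted liver, against -4.24, -5.33 and -6.56 in wild-type liver. It showed the split between slides of the first Cd8a probe, at -0.87 on slide 1 and 2.36 on slide 2.

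Cd4 did not share this direction at the probe read. Its levels were -0.67, 1.93 and 2.14 in deleted HCC, against -0.75, 2.28 and 2.58 in wild-type HCC, and -0.11, 1.60 and 1.55 in deleted liver, against -1.05, 1.69 and 1.79 in wild-type liver. On slide 2 both wild-type HCC arrays were above both deleted HCC arrays, and all 8 arrays of slide 2 were above all 4 of slide 1. The HCC difference was -0.24 ± 0.28 (adjusted p = 0.866). The other Cd4 probe was well above background on all arrays too and had levels of -0.72, -0.81 and -1.50 in deleted HCC, against -0.38, -1.82 and -1.58 in wild-type HCC. Both deleted arrays of slide 2 were then above both wild-type ones, and the HCC difference was 0.25. Among the HCC arrays those of slide 1 were the brighter ones. The direction for Cd4 thus depended on the probe.

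The 7 adhesion and costimulatory surface proteins were all higher in deleted HCC, by a median of 0.76. Cd2, which binds CD48 on other leukocytes in mice, had levels of -1.69, -0.39 and -1.93 in deleted HCC, against -1.84, -2.93 and -4.43 in wild-type HCC, and of -0.44, -2.65 and -2.52 in deleted liver, against -0.74, -2.95 and -3.73 in wild-type liver. As labelled, deleted arrays were above wild-type arrays on each slide in both tissues. On slide 1 both tissues went the other way with the 2 doubtful arrays exchanged. The difference as labelled was 1.73 ± 0.68 in HCC (limma adjusted p = 0.617) and 0.61 ± 0.68 in liver. Its second probe gave 1.97 in HCC and 1.03 in liver.

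Cd5, an inhibitor of receptor signals, had levels of -1.85, -1.51 and -2.19 in deleted HCC, against -2.09, -2.78 and -2.94 in wild-type HCC, and of -1.01, -2.67 and -2.62 in deleted liver, against -2.12, -2.87 and -3.17 in wild-type liver. It too was higher with deletion on each slide in both tissues, by 0.76 ± 0.32 in HCC and 0.62 ± 0.32 in liver (adjusted p = 0.626 and 0.441). In HCC it was lower with deletion on slide 1 once the 2 doubtful arrays were exchanged. Thy1, the classical surface mark of mouse T cells that stellate cells and fibroblasts can also carry, had levels of 0.44, 2.00 and 1.02 in deleted HCC, against 0.20, 1.07 and 0.61 in wild-type HCC, and of 1.96, -0.25 and 1.29 in deleted liver, against 1.33, 0.23 and 0.25 in wild-type liver. Its groups overlapped in both tissues. Cd27 and Cd28, receptors for costimulatory ligands, differed by 1.00 ± 0.57 and 0.91 ± 0.60 in HCC. Cd7, a surface protein of T and NK cells, and Cd6, a receptor for ALCAM, differed by 0.68 ± 0.42 and 0.091 ± 0.43.

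Among the kinases and adaptors that act next to the receptor, 5 of 6 were above 0 (median 0.50), and Lck and Zap70 differed in opposite directions. Lck had levels of -0.34, -0.42 and -1.59 in deleted HCC, against -0.58, -2.21 and -3.14 in wild-type HCC, and of 0.91, -2.39 and -2.01 in deleted liver, against -0.20, -2.50 and -2.76 in wild-type liver. Deleted arrays were the higher ones on each slide in both tissues. The difference was 1.20 ± 0.50 in HCC (limma adjusted p = 0.624) and 0.66 ± 0.50 in liver. Exchanging the 2 doubtful arrays made Lck on slide 1 lower with deletion in both tissues.

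Zap70 had levels of 2.62, 1.41 and 2.00 in deleted HCC, against 2.66, 2.77 and 3.20 in wild-type HCC, and of 3.11, 2.58 and 2.67 in deleted liver, against 3.44, 2.44 and 2.59 in wild-type liver. The deleted HCC arrays were below all 3 wild-type HCC arrays, with a difference of -0.036 on slide 1 and -1.28 on slide 2, and the liver groups overlapped. The HCC difference of -0.86 ± 0.29 had the smallest p of the members (limma adjusted p = 0.58). The second Zap70 probe gave 2.11, 1.40 and 1.98 in deleted HCC, against 3.08, 2.64 and 2.91 in wild-type HCC, a difference of -1.04. Both probes were well above background on all arrays and lower in all 3 deleted HCC samples, the opposite direction to Lck. Zap70 was the only member with no overlap in the lower direction (background 2.77%).

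The scaffold Lat differed by 0.35 ± 0.27 in HCC, with -0.41 on slide 1 and 0.73 on slide 2. Skap1, an adaptor that links the receptor to integrins, differed by 0.95 ± 0.43. A second Skap1 probe, well above background on all arrays, differed by 0.11, and its other 2 probes were well above background on 4 and 0 arrays. Sh2d2a, the T-cell specific adaptor that binds Lck, had levels of -1.60, -1.37 and -1.47 in deleted HCC, against -1.66, -1.49 and -1.54 in wild-type HCC, and of -0.97, -1.68 and -1.63 in deleted liver, against -2.38, -1.69 and -1.85 in wild-type liver. The HCC arrays all lay close together, and in liver the deleted arrays were above all wild-type arrays, chiefly on slide 1 (1.41, against 0.12 on slide 2). A second Sh2d2a probe, well above background on all arrays, had levels of -2.07, -2.51 and -3.08 in deleted HCC, against -2.36, -3.68 and -3.67 in wild-type HCC. At that probe deleted HCC was the higher on each slide as labelled, with a difference of 0.68 in HCC and 0.66 in liver. Trat1, an adaptor of the receptor complex, ranged from -5.79 to 2.81 with a wide spread within groups, and its HCC difference was 0.66 ± 1.79.

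**Figure D2:**
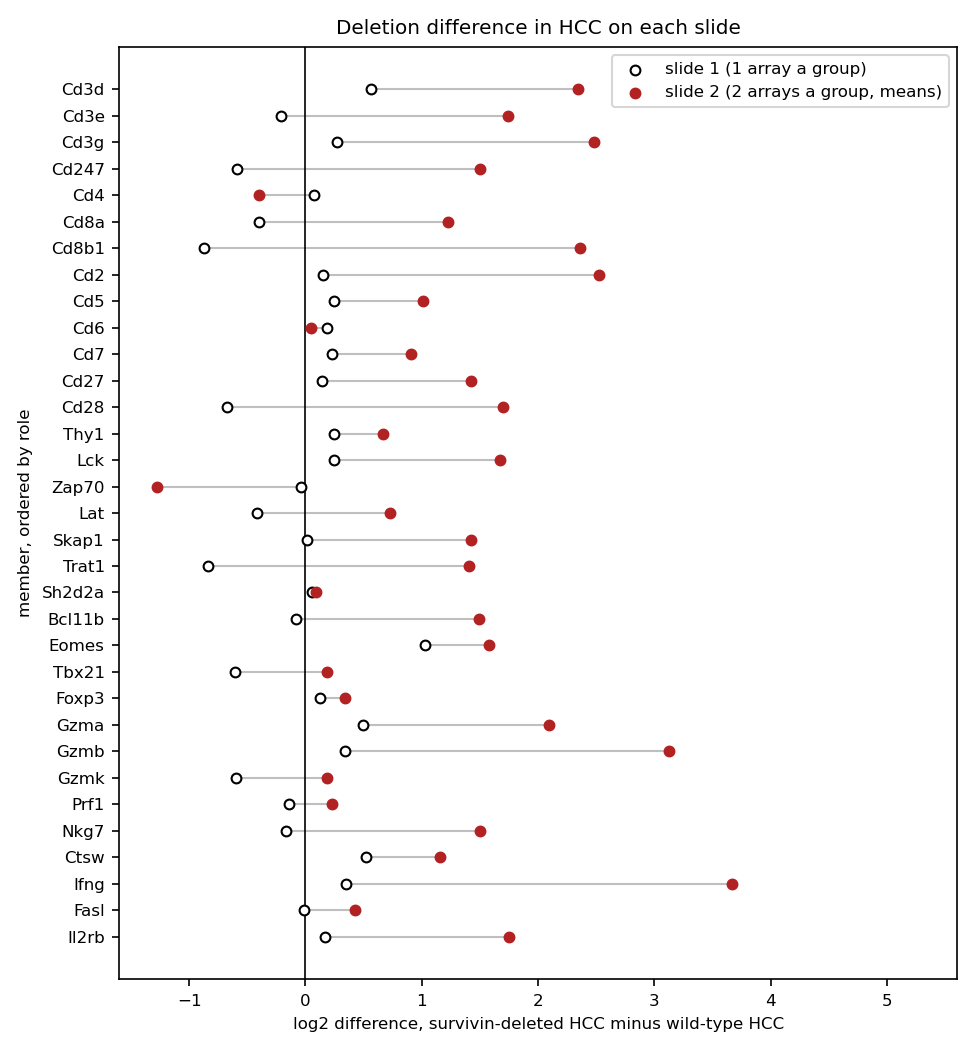
Each line is 1 member, with the log2 difference of deleted minus wild-type HCC on slide 1 (open) and on slide 2 (filled). Points of slide 2 lie to the right of 0 for 31 of 33 members and of slide 1 for 19, and Zap70 and Cd4 are the members to the left of 0 on slide 2.

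Of the 4 transcription factors 3 were above 0, with a median of 0.62. Eomes, which directs cytotoxic and memory programmes in T and NK cells, had levels of -1.88, -1.24 and -3.56 in deleted HCC, against -2.91, -3.11 and -4.84 in wild-type HCC, and of -1.20, -4.01 and -3.49 in deleted liver, against -1.82, -4.24 and -5.14 in wild-type liver. Deleted liver was the higher on each slide as labelled, and the lower on slide 1 with the 2 doubtful arrays exchanged. In HCC deleted replicate 3 lay between the wild-type arrays of its slide. The difference in HCC was 1.39 ± 0.72 (adjusted p = 0.659), and 1.69 at its second probe. Tbx21, the related factor T-bet that directs type 1 responses, had levels of -0.84, 0.34 and 0.26 in deleted HCC, against -0.24, 0.10 and 0.11 in wild-type HCC, and of -0.052, 0.14 and 0.14 in deleted liver, against -0.30, 0.44 and 0.39 in wild-type liver. It differed by -0.075 ± 0.20 in HCC, within the spread of the arrays.

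Foxp3, the factor of regulatory T cells, had levels of -1.86, -3.02 and -3.55 in deleted HCC, against -1.99, -3.88 and -3.35 in wild-type HCC, and of -2.09, -3.78 and -3.34 in deleted liver, against -1.66, -3.54 and -3.45 in wild-type liver. Its groups overlapped in both tissues and the arrays of slide 1 were above all others in every group. The HCC difference was 0.27 ± 0.22. Bcl11b, needed for T-cell commitment and for keeping T-cell identity, differed by 0.97 ± 0.44 in HCC, with -0.079 on slide 1 and 1.49 on slide 2.

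The granule proteins divided into members brighter in deleted HCC, by up to 4.58-fold for Gzmb, and 2, Gzmk and Prf1, whose difference was smaller than its standard error. Of the 6, 5 were above 0, with a median of 0.95. Gzma, a serine protease of killer cell granules, had levels of 0.67, -1.03 and -0.58 in deleted HCC, against 0.18, -2.12 and -3.68 in wild-type HCC, and of 1.21, -2.34 and -1.03 in deleted liver, against 1.52, -0.94 and -2.30 in wild-type liver. On each slide the deleted HCC arrays were the higher, while in liver they were mixed. It was 2.94-fold higher in deleted HCC (1.56 ± 0.56, limma adjusted p = 0.58). Gzmb, the granzyme that starts caspase cleavage, had levels of -1.62, 0.74 and -2.99 in deleted HCC, against -1.96, -3.62 and -4.88 in wild-type HCC, and of 0.79, -3.68 and -2.49 in deleted liver, against 0.030, -2.37 and -2.98 in wild-type liver. Deleted HCC was the higher on each slide, with deleted replicate 2 more than 3 units above deleted replicate 3, and the difference was 2.19 ± 1.04. Both Gzma and Gzmb were lower in deleted HCC on slide 1 with the 2 doubtful arrays exchanged.

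Gzmk, a further granzyme, had levels of -0.77, -1.47 and -1.68 in deleted HCC, against -0.18, -1.83 and -1.68 in wild-type HCC, and of 0.64, -1.78 and -1.51 in deleted liver, against -1.26, -1.91 and -1.72 in wild-type liver. Its HCC groups overlapped (-0.078 ± 0.33), and its second probe differed by 0.51. Prf1, perforin, the pore-forming protein through which granzymes enter a target, had levels of -0.55, 1.78 and 0.81 in deleted HCC, against -0.41, 1.06 and 1.08 in wild-type HCC, and of 1.13, 0.67 and 0.92 in deleted liver, against -0.49, 0.69 and 0.96 in wild-type liver. Perforin also overlapped between the HCC groups, at 0.10 ± 0.43. Nkg7, a granule membrane protein of killer lymphocytes, had levels of 1.58, 2.07 and 0.96 in deleted HCC, against 1.75, -0.047 and 0.070 in wild-type HCC, and of 2.78, 1.14 and 0.36 in deleted liver, against 2.49, 0.50 and 1.02 in wild-type liver. On slide 2 both deleted HCC arrays were above both wild-type ones, and the reverse held on slide 1. The differences in HCC at its 2 probes were 0.94 and 1.16. Ctsw, a cysteine protease of killer cells, was one of 3 members with no overlap between the HCC groups in the higher direction, beside Cd3d and Cd3g (background 2.89%), and differed by 0.95 ± 0.39. With the 2 doubtful arrays exchanged all 3 overlapped, and the differences were 0.55 for Ctsw, 1.19 for Cd3d and 1.10 for Cd3g.

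Ifng, the interferon-gamma gene, was well above background on all 3 deleted HCC arrays and on 2 of 3 wild-type HCC arrays, so its lowest values are not precise. It had levels of -2.63, -0.74 and -3.91 in deleted HCC, against -2.98, -5.16 and -6.84 in wild-type HCC, and of -0.55, -4.72 and -5.10 in deleted liver, against -2.21, -5.05 and -6.37 in wild-type liver. Deleted HCC was the higher on each slide, but the deleted replicates 2 and 3 were more than 3 units apart. The difference was 2.56 ± 1.04 in HCC and 1.09 ± 1.04 in liver (limma adjusted p = 0.619 and 0.657). On slide 1 deleted HCC was the lower for Ifng with the 2 doubtful arrays exchanged.

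Il2rb, the beta chain of the interleukin 2 and 15 receptors on T and NK cells, had levels of -1.25, -0.25 and -1.47 in deleted HCC, against -1.41, -2.18 and -3.03 in wild-type HCC, and of -0.45, -2.43 and -1.90 in deleted liver, against -1.23, -2.45 and -2.83 in wild-type liver. As labelled, deletion went with higher levels on each slide in both tissues, by 1.22 ± 0.48 in HCC (limma adjusted p = 0.615) and 0.57 ± 0.48 in liver. Slide 1 went the other way in both tissues with the 2 doubtful arrays exchanged. Fasl, the ligand of the death receptor Fas, had levels of -2.23, -2.81 and -3.81 in deleted HCC, against -2.22, -3.51 and -3.95 in wild-type HCC, and of -1.28, -3.74 and -3.47 in deleted liver, against -2.89, -3.73 and -3.69 in wild-type liver. Its HCC groups overlapped (0.28 ± 0.35).

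**Figure D3:**
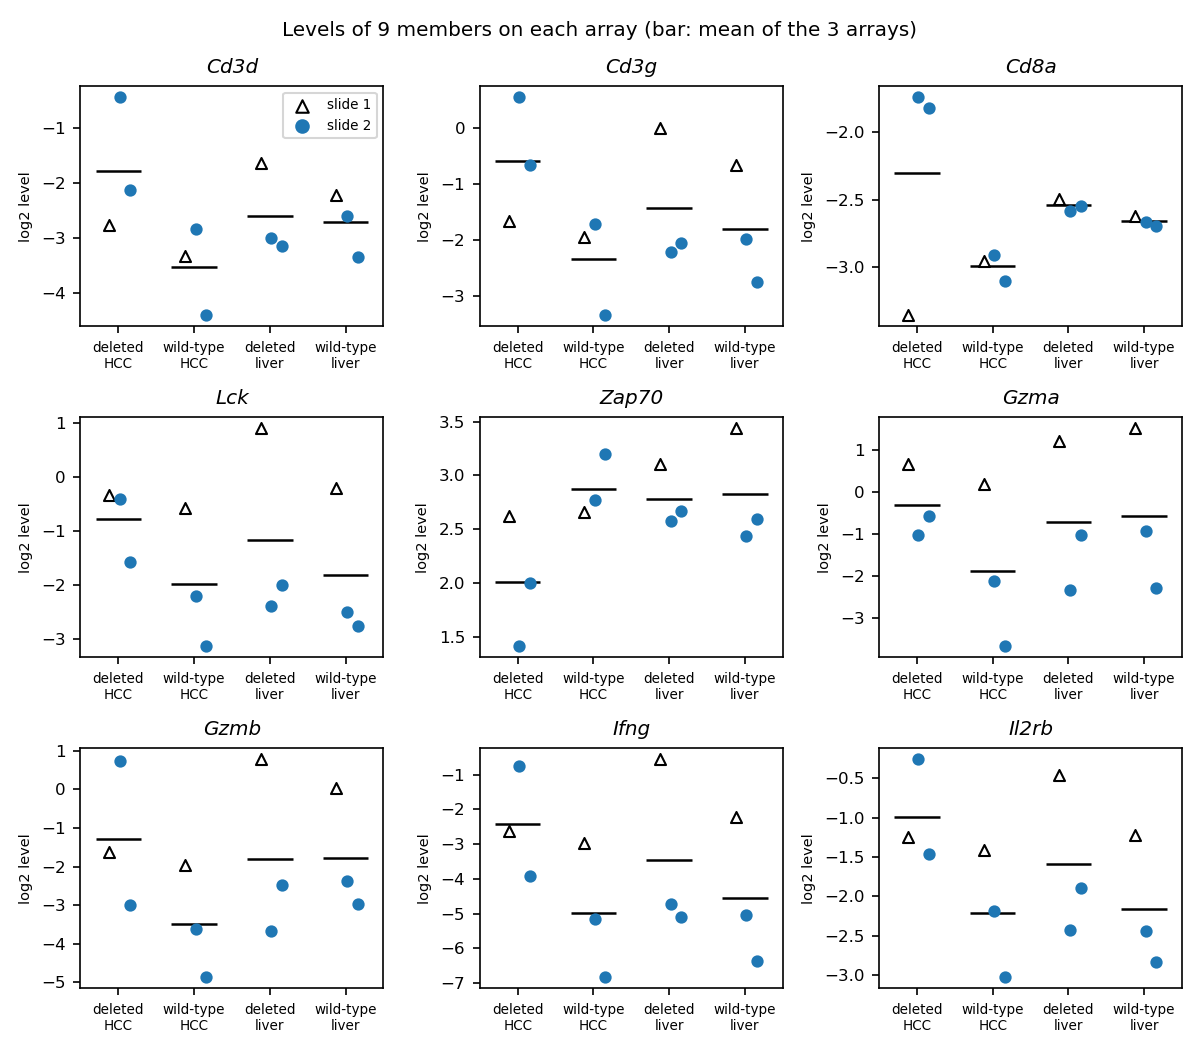
Each panel gives the log2 level of 1 member on the 3 arrays of each group (triangle, slide 1; points, slide 2; bar, mean of the 3 arrays). For Cd3d and Cd3g the deleted HCC arrays lie above all wild-type HCC arrays and for Zap70 below them, while the other 6 overlap between the HCC groups.

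Promoter windows from RefSeq (GRCm38.p6, 250 bases before to 50 after a start site) were matched for 23 of the 35 members, in 27 windows, and searched on both strands. The letters TGTGGT, a RUNX site, were found in 8 of these windows, against 16.8% of all 32851 windows, in Gzma, Gzmb, Lat, Lck, Nkg7, Prf1, Trat1 and Zap70. The TATA box, searched as TATAAA, was found in 4 (13.6% of all windows) and TGANTCA, an AP-1 site, in 1, Gzmb (7.81%). TGACGTCA, the cyclic AMP response element, was found in 1 (1.79%), Zap70. The 2 windows of the members with the widest fitted HCC differences are printed, with these letters in capitals. Gzmb holds 2 RUNX matches and 1 AP-1 match, and Ifng 1 TATA box.
Gzmb (chr14:56262285-56262584, GRCm38.p6, minus strand): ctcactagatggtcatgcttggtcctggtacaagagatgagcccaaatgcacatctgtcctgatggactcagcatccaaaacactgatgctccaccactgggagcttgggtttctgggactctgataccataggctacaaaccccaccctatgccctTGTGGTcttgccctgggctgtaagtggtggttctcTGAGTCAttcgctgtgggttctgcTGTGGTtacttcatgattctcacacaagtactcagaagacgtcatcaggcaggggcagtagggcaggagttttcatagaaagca
Ifng (chr10:118440796-118441095, GRCm38.p6, plus strand): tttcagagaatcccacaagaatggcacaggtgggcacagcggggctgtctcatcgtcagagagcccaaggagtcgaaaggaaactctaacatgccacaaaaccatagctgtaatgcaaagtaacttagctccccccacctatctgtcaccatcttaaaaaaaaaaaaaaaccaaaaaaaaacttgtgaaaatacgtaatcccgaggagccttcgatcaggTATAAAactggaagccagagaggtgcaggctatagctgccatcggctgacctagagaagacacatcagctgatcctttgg

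Other genes of the T-cell pathway were read from lists, and none passed the adjusted threshold. Over all genes 47.4% were above 0 in HCC and 3.44% were higher at an unadjusted p under 0.05, and on slide 1 alone 35.1% were above 0. In HCC all 17 tested lymphocyte homing and cytokine receptors were higher with deletion (median 0.91, 7 at an unadjusted p under 0.05), 10 of them on slide 1 (median 0.26). Examples are the interleukin receptor genes Il2ra at 1.25 ± 0.44 and Il18r1 at 0.76 ± 0.27. Of 13 costimulatory and inhibitory receptors 12 were higher (median 0.43, 4 at that p), but 3 of 13 on slide 1 (median -0.25). Among them were Icos at 1.36 ± 0.43 and Havcr2 at 1.74 ± 0.62. Of 26 signal transmission genes 20 were higher (median 0.37), and 12 of 26 on slide 1 (median -0.11). Ptpn22, a phosphatase that restrains Lck, was higher by 1.79 ± 0.39 (limma adjusted p = 0.54), and Rasgrp1, the activator of Ras downstream of Lat, by 1.31 ± 0.33. Both were higher on each slide, as was Havcr2.

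Of 17 further T-lineage transcription factors 12 were higher and 5 lower (median 0.32), and 8 of 17 higher on slide 1. Bach2, a repressor of effector genes, was lower, at -1.10 ± 0.34 (limma adjusted p = 0.577). Of 15 further granule and effector cytokine genes 14 were higher (median 0.66), and 4 of 15 on slide 1 (median -0.048). Lymphotoxin alpha, Lta, differed by 1.47 ± 0.43. Of the receptor's own antigen-binding chains 3 of 16 listed loci could be tested, with 1 of 3 higher and a median of -0.13. The interferon-gamma induced genes were higher in 17 of 18 cases (median 0.85, 6 at an unadjusted p under 0.05), and in 13 of 18 on slide 1. Gbp3, an induced GTPase, had the second smallest p of this list, at 1.42 ± 0.28 (limma adjusted p = 0.54), and Cd274, which encodes PD-L1, a ligand that restrains T cells, the smallest, at 2.68 ± 0.50 (adjusted p = 0.54). With the 2 doubtful arrays exchanged, the HCC median was 0.83 for homing and cytokine receptors and 0.40 for costimulatory and inhibitory receptors. It was 0.31 for signal transmission, 0.46 for transcription factor, 0.52 for granule and effector, and 0.50 for interferon-gamma induced genes. Of the homing, costimulatory and interferon-gamma lists 6, 2 and 3 genes were then higher at an unadjusted p under 0.05 by limma (background 3.55%).

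Markers of other cells were read beside these values, since the arrays measured whole tissue. In such samples fewer cells of a type and less RNA per cell cannot be told apart. The summed linear level of the 7 receptor subunits and coreceptors was 1.581, 7.959 and 6.301 in deleted HCC replicates 1, 2 and 3. In wild-type HCC it was 1.578, 5.844 and 6.491, so the groups overlapped. On slide 2 the Cd4 probe was the brightest of the 7 and gave most of the sum in wild-type HCC. The direction for Cd4 depended on the probe, so this overlap does not speak for the other members of the sum. The 9 genes common to all leukocytes were all higher in deleted HCC, by a median of 0.71, 5 at an unadjusted p under 0.05, and 6 of 9 were higher on slide 1. Their summed linear level was 19.05 to 37.28 in deleted HCC, against 8.572 to 18.95 in wild-type HCC, with no overlap as labelled. The wild-type level of 18.95 was that of slide 1, where deleted HCC had 19.24. With the doubtful arrays exchanged, wild-type HCC replicate 1 had 24.08 and the groups overlapped. The median difference of these 9 genes was then 0.73, with 2 higher at an unadjusted p under 0.05 by limma (background 3.55%). B-cell markers had a median difference of 0.62 (6 of 9 higher, summed level 15.66 to 24 in deleted HCC, against 5.525 to 18.62 in wild-type HCC), macrophage markers of 0.41 (9 of 12 higher, summed level 42.3 to 77.18 in deleted HCC, against 30.55 to 84.59 in wild-type HCC), and dendritic cell markers of 0.12 (6 of 7 higher). NK-cell markers had a median difference of 0.16, with 6 of 9 tested markers higher and none at an unadjusted p under 0.05, and 5 of 15 were well above background on all arrays. Their summed level was 6.87 to 10.68 in deleted HCC, against 6.405 to 9.213 in wild-type HCC. The median difference of the hepatocyte markers was 0.017. The part of any of these cells in the T-cell and cytotoxic values was not tested.

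In non-cancerous liver the deletion difference of the members was larger on slide 1 than on slide 2. It was above 0 for 26 of 33 members (55.1% of all genes), with a median of 0.44 (all genes 0.051). No member and no gene passed the adjusted threshold (background 0%), and 2 members were higher at an unadjusted p under 0.05 (background 8.37%) and none lower (background 3.46%). The first were Gzmk at 0.75 ± 0.33 (limma adjusted p = 0.421) and Sh2d2a at 0.55 ± 0.24 (adjusted p = 0.421). On each slide the deleted arrays were above the wild-type arrays for 10 of 33 members (background 15%).

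The median liver difference was 0.72 on slide 1, where 27 of 33 members were higher on the array labelled deleted liver, and 0.12 on slide 2. That slide 1 array is one of the 2 in doubt. With both exchanged the median liver difference was 0.081, without them -0.029, and without the deleted liver array alone 0.043. Without wild-type liver replicate 1 alone it was 0.41. On slide 1 the array labelled deleted liver had 83.4% of spots well above background, the highest share of any array. The wild-type liver array of slide 1 had 49%, the lowest share. The part of this gap in the slide 1 liver differences was not tested, and the share of all genes higher there is not given. Fasl differed by 1.61 on slide 1 and 0.10 on slide 2, Gzmk by 1.90 on slide 1 and 0.17 on slide 2, and Prf1 by 1.62 on slide 1 and -0.030 on slide 2. Cd5, Cd247, Cd2 and Eomes were higher in deleted liver on both slides as labelled. After the exchange this still held on slide 1 for Cd5 and Cd247, but not for Cd2 and Eomes. Of the other lists, the homing and cytokine receptors differed in liver by a median of 0.21 (14 of 17 higher, none at an unadjusted p under 0.05) and the leukocyte markers by 0.080 (6 of 9 higher). Cd6 was the 1 member apart downward on each slide (background 13.3%), at -0.71 ± 0.43.

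**Figure D4:**
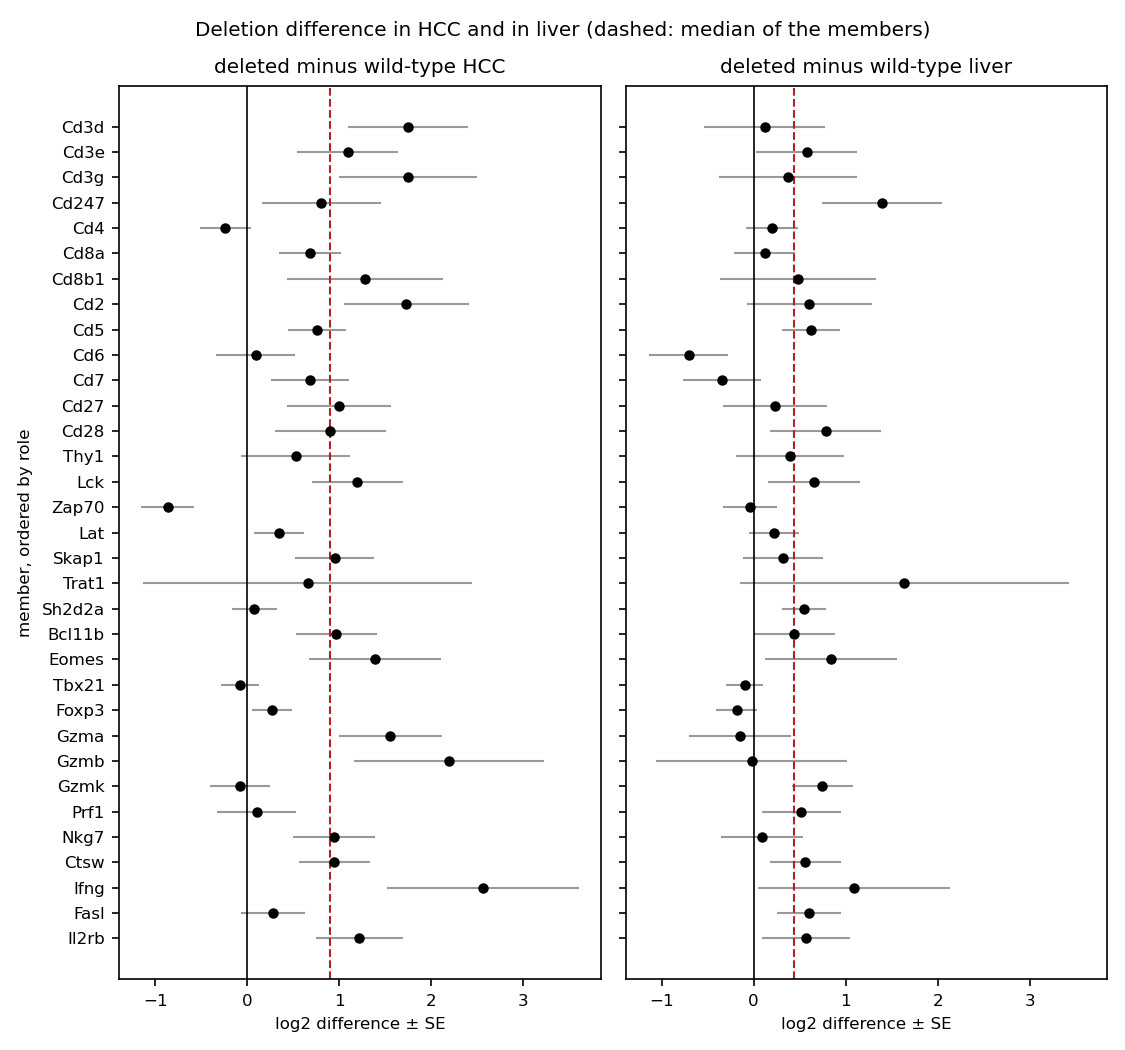
Points give the log2 difference of deleted minus wild-type samples for each member in HCC (left) and in non-cancerous liver (right), bars the standard error of the fit, and dashed lines the members' medians of 0.91 and 0.44. Gzmb, Ifng, Cd3d, Cd3g and Cd2 lie farthest to the right in HCC, and Zap70 lies to the left.

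The difference between the 2 deletion differences, HCC minus liver, was tested in the same fit. No member passed the adjusted threshold or an unadjusted p under 0.05 (background 0% and, for the higher and lower direction, 0.845% and 2.44%). Its median was 0.53, with 25 of 33 above 0 (43.6% of all genes). On slide 1 the median was -0.75 with 7 members above 0, and on slide 2 it was 1.06 with 29 above 0. The 43.6% is for the fit over both slides, and the share of all genes on each slide is not given. Without deleted HCC replicate 2 the median was -0.020. Gzma had the smallest p, with a difference of 1.71 ± 0.79 (limma adjusted p = 0.913). The data therefore do not show that deletion acted differently on these genes in tumour and liver.

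Tumour was also set against liver within each genotype. Between wild-type HCC and wild-type liver the members were evenly split, 16 higher and 17 lower (55.4% of all genes were higher), with a median of -0.042. No member passed the adjusted threshold (background 0%). Gzma alone had an unadjusted p under 0.05, being lower in HCC by 1.30 ± 0.56 (limma adjusted p = 0.752, background 2.43%), and none was higher at that p (background 3.66%). With the 2 doubtful arrays exchanged the median was 0.20, Gzma differed by -0.96 and no member was lower at that p (background 4.02%), while 2, Cd4 at 0.77 and Sh2d2a at 0.64, were higher (background 7.47%). Without them the median was -0.27. Wild-type HCC lay below wild-type liver with no overlap on either slide for 3 members (background 11.8%), Gzmb at -1.71 ± 1.04, Nkg7 at -0.74 ± 0.45 and Cd8a at -0.33 ± 0.33. It lay above it in the same way for Cd4, Sh2d2a and Prf1 (background 13.9%). Both counts were under the background share. After the exchange wild-type HCC was the higher on slide 1 for Gzmb, Nkg7 and Cd8a, so the downward separation no longer held. Cd4, Sh2d2a and Prf1 stayed higher on each slide. At the Cd8a probe read, the 3 arrays of wild-type HCC lay below all 6 liver arrays as labelled, but overlapped them after the exchange. At the second Cd8a probe, well above background on 6 arrays, wild-type HCC and liver overlapped as labelled.

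Between survivin-deleted HCC and survivin-deleted liver 26 of 33 members were higher in HCC (44.2% of all genes), with a median of 0.31, and none passed the adjusted threshold (background 0%). The slides disagreed, at -0.84 on slide 1 and 0.80 on slide 2. Zap70 was lower in HCC on each slide, at -0.77 ± 0.29 (limma adjusted p = 0.904), and was the only member at an unadjusted p under 0.05 (background 2.63% lower and 1.75% higher). With the 2 doubtful arrays exchanged the median was 0.61, and without them 0.64. Without deleted HCC replicate 2 it was -0.14.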

How the data were processed

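Total RNA was hybridised in one colour (Cy3) to 12 Agilent arrays, 3 a group. The authors deposited the scanner output, whose processed spot intensity came from Feature Extraction 10.7 (Agilent), which subtracts background, as the submitters' processing notes name it. The authors also deposited a value table on a log2 scale, used to check which array is which and as an alternative source of values. Positions are mm9, per the file headers.

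Control spots were left out, each array's 75th percentile was subtracted after log2, and the probe of highest mean per gene was kept among 55681 probes, where it was well above background on every array of at least 1 group. Across 26506 genes limma 3.58.1 in R 4.3.3 fitted group and slide, with Benjamini-Hochberg adjustment at 0.05. No spot was saturated. The code was tested on simulated data. Array number limits the precision.

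The members and lists were chosen with earlier results of these data known. Values on every array are given for the leading genes of each role and for the 5 members of smallest p in each deletion comparison, and up to 3 genes of smallest p were named from other lists.

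Same-numbered arrays of different groups deviated together (correlations of 0.28 to 0.74 over 18 pairs, which share a slide), while within slide 2 only 2 of 6 pairs passed 0.1. Alternatives were other background, scaling, filter and probe rules, the replicate block, no slide term, only the groups compared, another variance prior, each slide alone, each array left out, and the 2 doubtful arrays exchanged or left out.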

Additional observations from a re-analysis of the deposited data

How the results depend on the processing

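Under none of the 27 tested settings was a member called in any of the 5 comparisons (limma, 0 to 0 over the 12 settings that left out 1 array), and the smallest adjusted p of a member was 0.0748. The median difference of the members moved by more than 0.501 in the following cases. That value is the SD between arrays of their median level that remained after group and slide were fitted. In HCC it was 1.42 on slide 2 alone and 0.077 on slide 1 alone. For deleted HCC against deleted liver it was -0.84 on slide 1 alone. The difference between tissues was 1.06 on slide 2 alone, -0.75 on slide 1 alone, 1.06 without the 2 doubtful arrays, and -0.020 without deleted HCC replicate 2. The cause was not tested.

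Leaving out 1 array at a time gave 0.42 (without deleted HCC replicate 2) to 1.32 for deletion in HCC, 0.043 (without deleted liver replicate 1) to 0.61 in liver, -0.25 to 0.093 for wild-type HCC against liver, -0.14 (without deleted HCC replicate 2) to 0.75 for deleted HCC against liver, and -0.020 to 1.00 for the difference between tissues. With the replicate block in place of the slide, 0 members were called and the HCC median stayed at 0.91. From the authors' value table the HCC median was 0.56. With the 2 arrays exchanged, Birc5 differed by -1.62 in HCC and -1.50 in liver. Members not well above background on all arrays (Cd247, Cd8b1, Bcl11b and Ifng) have less certain low values.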

Other observations

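In wild-type HCC, set against wild-type liver, the leukocyte markers were lower for 9 of 9 genes, with a median of -0.45 on the log2 scale, with none at an unadjusted p under 0.05. Macrophage markers were lower for 12 of 12 (median -0.61), among them Vsig4, a complement receptor of Kupffer cells, at -1.68 ± 0.57 (SE, limma adjusted p = 0.752). Of the NK-cell markers 7 of 9 were higher (median 0.19), with Klrb1b, a lectin-like receptor, at 1.39 ± 0.34 and Itga2, an integrin chain, at 1.36 ± 0.40 (limma adjusted p = 0.752 and 0.752). Of the 6 cytotoxic granule genes 3 (Gzma, Gzmb and Nkg7) were lower and 3 (Gzmk, Prf1 and Ctsw) higher in the same comparison. Over all genes 55.4% were higher there. On slide 1 alone 5 of the 9 NK-cell markers were higher (median 0.0105). With the 2 doubtful arrays exchanged the medians were -0.33 for leukocyte, -0.63 for macrophage and 0.21 for NK-cell markers.

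Dntt, the terminal transferase of immature lymphocytes, was lower in deleted HCC than in wild-type HCC at -2.74 ± 0.62 (limma adjusted p = 0.54), with -0.59 on slide 1 and -3.82 on slide 2. Of 7 listed markers of immature lymphocytes 4 could be tested. All 4 were lower there in the fit, with a median of -0.39, though 1 of them was higher on slide 2. Over all genes 47.4% were above 0.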
